A study of Mus musculus with 4 samples.

Results

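A set of 10 genes that hypoxia-inducible factor (HIF) is known to switch on, none of them an enzyme of glycolysis or an angiogenic growth factor, was measured in 4 mouse neuroblastoma tumours. The 10 members are Egln3, Ankrd37, Hilpda, Ndrg1, Bnip3, Bnip3l, P4ha1, P4ha2, Car9 and Kdm3a, out of 43432 genes in the count table, and all 10 passed the filter on low counts. They were chosen by name as known hypoxia-induced genes, when the fold changes of several of them between these same groups were already known. Their fold changes are therefore given as a description and support nothing by themselves.

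In 2 tumours the mice had received 25 µg of dinutuximab together with 20 µg of sEVs (small extracellular vesicles, here from cells of the 9464D-GD2 line), and in the other 2 only the 25 µg of dinutuximab. Both groups were dosed 2 times per week, for 5 treatments. All were female C57BL/6 mice bearing subcutaneous 9464D-GD2 tumours. Dinutuximab is an antibody against the ganglioside GD2, and 9464D-GD2 is a mouse neuroblastoma line that carries GD2, from a parent line of a mouse whose MYCN transgene is driven by the tyrosine hydroxylase promoter. Every tumour analysed here had received the antibody, the tumours grew under the skin rather than at the adrenal or sympathetic sites where neuroblastoma arises, and the meaning of the tumour numbers, 3 and 4, is not given in the sources used here.

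HIF is a transcription factor of an oxygen-regulated alpha subunit and a stable beta subunit. With oxygen present, prolyl hydroxylases of the EGLN family mark the alpha subunit for the ubiquitin ligase VHL and it is destroyed. When oxygen is short it accumulates and binds the core sequence ACGTG or GCGTG in its target genes. Beyond glucose metabolism its targets slow HIF signalling by feedback (Egln3), store lipid (Hilpda), remove mitochondria (Bnip3, Bnip3l), modify collagen (P4ha1, P4ha2), regulate pH at the cell surface (Car9) and demethylate histones (Kdm3a). In bulk tumour RNA, fewer cells that express a gene and less RNA per cell cannot be told apart.

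The promoter windows that follow are shown because the members were grouped by their response to oxygen, and the HIF core sequence is what such genes are known to share. They are 300-base windows from RefSeq on GRCm38.p6, from 250 bases before a transcription start to 50 after it, written 5′ to 3′ on the gene's strand, and capitals mark every ACGTG or GCGTG on either strand (CACGT and CACGC where the match is on the other strand). The 3 genes with the most negative fold changes over the 4 tumours, all lowest in sEV tumour 4, come first: Egln3 at chr12:54203825-54204124 (minus strand), Ankrd37 at chr8:45999801-46000100 (minus strand) and the window of the downstream Hilpda start at chr6:29272376-29272675 (plus strand). P4ha2 at chr11:54100674-54100973 and Car9 at chr4:43506776-43507075 (both plus strand) were lowest in sEV tumour 3, and Bnip3 at chr7:138909457-138909756 (minus strand) had overlapping groups.
Egln3: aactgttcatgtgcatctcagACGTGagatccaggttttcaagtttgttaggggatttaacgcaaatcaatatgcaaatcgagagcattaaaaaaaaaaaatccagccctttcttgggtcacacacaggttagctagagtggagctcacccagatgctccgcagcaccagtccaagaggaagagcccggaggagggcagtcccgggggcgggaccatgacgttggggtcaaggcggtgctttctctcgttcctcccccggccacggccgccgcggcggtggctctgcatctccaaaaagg
Ankrd37: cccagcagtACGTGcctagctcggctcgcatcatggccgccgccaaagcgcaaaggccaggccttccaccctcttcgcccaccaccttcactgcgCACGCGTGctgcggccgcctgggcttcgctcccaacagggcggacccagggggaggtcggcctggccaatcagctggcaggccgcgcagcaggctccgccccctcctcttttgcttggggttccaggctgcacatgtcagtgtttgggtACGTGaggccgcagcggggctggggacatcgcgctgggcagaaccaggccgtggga
Hilpda: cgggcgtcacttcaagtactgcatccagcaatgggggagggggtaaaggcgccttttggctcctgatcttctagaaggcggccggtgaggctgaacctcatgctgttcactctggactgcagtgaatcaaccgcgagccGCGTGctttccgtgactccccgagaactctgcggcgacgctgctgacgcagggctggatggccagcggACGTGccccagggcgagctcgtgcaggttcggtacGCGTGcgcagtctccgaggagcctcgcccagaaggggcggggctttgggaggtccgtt
P4ha2: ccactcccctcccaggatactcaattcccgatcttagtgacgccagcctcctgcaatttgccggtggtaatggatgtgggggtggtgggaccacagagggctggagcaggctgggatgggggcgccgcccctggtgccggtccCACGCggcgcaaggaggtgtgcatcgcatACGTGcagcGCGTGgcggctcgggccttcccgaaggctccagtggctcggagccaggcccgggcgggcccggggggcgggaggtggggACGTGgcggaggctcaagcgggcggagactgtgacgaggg
Car9: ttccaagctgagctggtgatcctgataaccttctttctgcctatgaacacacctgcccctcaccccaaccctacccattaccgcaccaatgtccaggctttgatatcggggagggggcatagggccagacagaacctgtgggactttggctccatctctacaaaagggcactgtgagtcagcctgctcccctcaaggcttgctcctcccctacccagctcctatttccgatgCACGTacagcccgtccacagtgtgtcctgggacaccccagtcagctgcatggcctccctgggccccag
Bnip3: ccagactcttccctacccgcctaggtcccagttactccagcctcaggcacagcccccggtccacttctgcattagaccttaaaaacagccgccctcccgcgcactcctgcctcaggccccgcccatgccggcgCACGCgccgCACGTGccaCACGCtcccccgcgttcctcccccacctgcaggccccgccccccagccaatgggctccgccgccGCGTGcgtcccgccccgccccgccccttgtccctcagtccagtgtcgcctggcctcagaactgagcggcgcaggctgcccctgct

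RefSeq windows were found for 8 of the 10 members, 11 windows in all, and not for Ndrg1 or Bnip3l. All 8 genes had at least 1 window with a core match, where 66.7% of the 10105 tested genes with a window had one. ACGTG was present in 7 of the 8, against 29.1% of those genes, and Kdm3a was the gene without it. Each printed window held an ACGTG. Of the windows not printed, that of P4ha1 held 1 ACGTG and 2 GCGTG. The upstream Hilpda window held 0 ACGTG and 1 GCGTG, as did the first Kdm3a window, and the other Kdm3a windows held 0 matches. The Hilpda windows overlap, and the GCGTG of the upstream one also stands in the printed one, 111 bases before its start. The count by window therefore takes this site 2 times. By window, 9 of 11 held a match (81.8%), against 60.8% of the 12899 windows of tested genes and 43.8% of all 32851 windows. The members' windows had a median GC content of 64.3%, and the windows of tested genes 60.3%. Ankrd37 and P4ha2 had 4 matches each, with an ACGTG starting 6 bases before the start site in Ankrd37 and 78 bases before it in P4ha2. Car9 had a single match, starting 18 bases before the start, and the single match of Egln3 began 229 bases before it. Bnip3 had 5, of which 2 are the same CACGTG read on both strands. CACGTG is also the E-box that MYC proteins bind; it stood in 1 of the 11 windows and in 9.64% of the windows of tested genes. These are letter matches, and no binding was measured.

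The 2 sEV libraries held 26164711 and 28187573 counts, and the 2 dinutuximab libraries 26312447 and 24452699. The members' counts ranged between 725 counts for Ankrd37 in sEV tumour 4 and 11334 for Ndrg1 in dinutuximab tumour 3. The first principal component, which held 44.3% of the variance, set sEV tumour 3 (score 28.5) apart from the rest (scores of -14.9 to -4.25). Of the tumour's markers, Mycn (160 and 139 CPM with sEVs, 133 and 162 with dinutuximab), Hand2 and Isl1 were present, while Phox2a, an adrenergic marker, was at no more than 0.117 CPM. CPM is a gene's count divided by the library's total and its TMM factor, on a common scale.

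Most of the 10 genes had lower levels in the tumours given sEVs, by amounts that ran from almost nothing to nearly 2-fold, and none passed the test over all genes. Both sEV tumours lay below both dinutuximab tumours in 8 of the 10 genes, and the groups overlapped in Bnip3 and Bnip3l. Over all tested genes, 16.5% lay lower in this way. The log2 fold change, sEV over dinutuximab, was negative in 9 of 10, where 49.7% of all tested genes were negative. Its median over the 10 was -0.49, beside 0.0015 over the 13823 tested genes. These counts carry the choice of the genes with results known and are read no further.

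**Figure D1:**
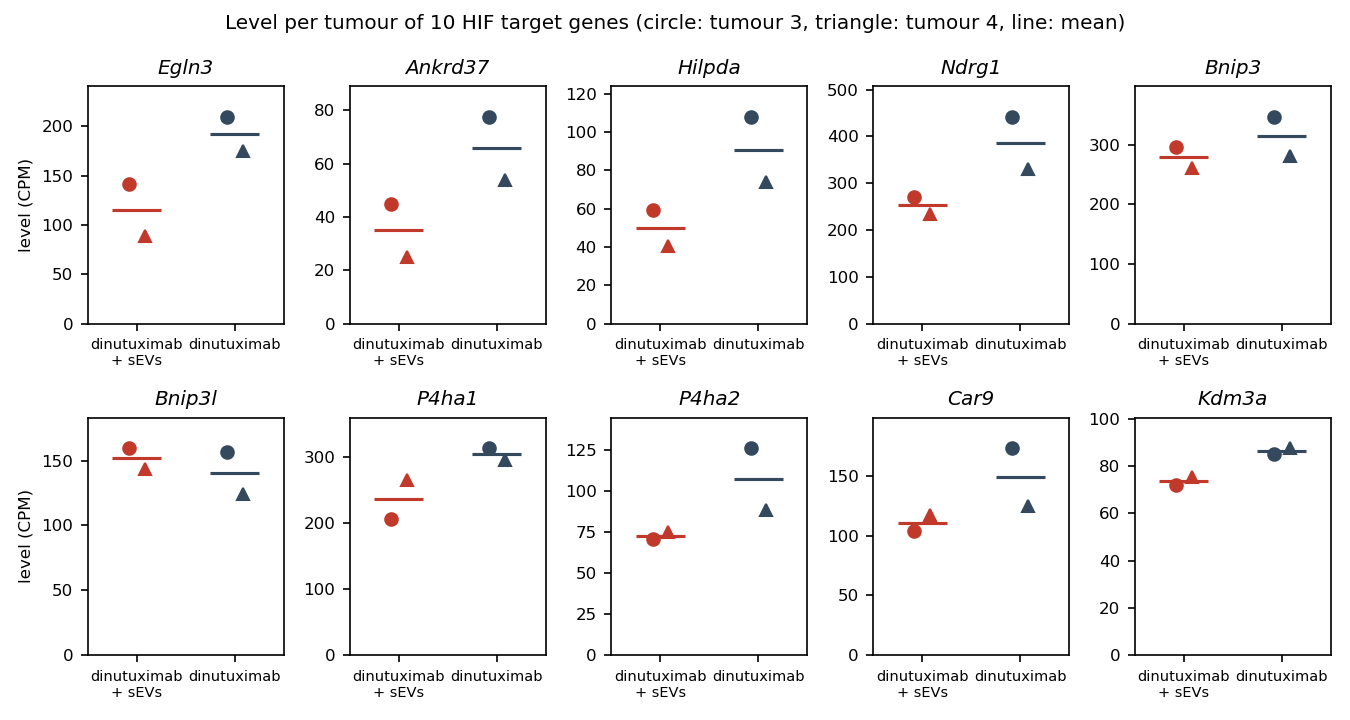
Level of each of the 10 genes in CPM (vertical axes, linear from 0) in tumours given dinutuximab plus sEVs (left, red) and dinutuximab alone (right, dark), with a circle for tumour 3, a triangle for tumour 4 and a line at the mean of 2. The groups are apart in 8 panels and overlap in Bnip3 and Bnip3l.

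By the edgeR quasi-likelihood F test with Benjamini-Hochberg adjustment over 13823 genes, 0 of the 10 were called, and 0% of all genes were. The adjusted p ran between 0.605 for Hilpda and 0.949 for Bnip3l. At an unadjusted p under 0.05, 7 of the 10 were lower and 0 higher, where 3.1% of all tested genes were lower and 2.47% higher (5.57% in either direction). limma-voom called 0 of the 10 and 0% of all genes. DESeq2 called 1 of the 10, Hilpda (adjusted p = 0.0330, DESeq2), and 0.275% of all genes as lower (0.398% in either direction). The tumours of a group are given as biological replicates. The p-values set the difference between groups against the spread between tumours of a group, in these 4 samples only. That spread was estimated for each gene with information from all tested genes.

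Over the 4 tumours, Egln3, Ankrd37 and Hilpda had the lowest fold changes, an order that rests on sEV tumour 4: without sEV replicate 4 they were -0.44, -0.55 and -0.61, beside -0.60 for P4ha2 and -0.56 for P4ha1. Egln3 (ENSMUSG00000035105, chromosome 12, 54178981 to 54203860 on GRCm38, minus strand) encodes PHD3, a HIF prolyl hydroxylase that HIF itself induces. It had 142 and 88.8 CPM in sEV tumours 3 and 4, against 209 and 174 CPM in dinutuximab tumours 3 and 4. Its means were 115 ± 37.5 CPM with sEVs and 192 ± 24.6 CPM with dinutuximab (SD, n = 2 each), a log2 fold change of -0.73 ± 0.21 (SE). The lowest tumour was sEV tumour 4, the highest was dinutuximab tumour 3, and the groups did not overlap.

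Ankrd37 (ENSMUSG00000050914, chromosome 8, 45996902 to 46005707, minus strand) encodes an ankyrin-repeat protein best known as a marker of HIF activity. It had 44.9 and 25.1 CPM in sEV tumours 3 and 4, against 77.5 and 53.9 CPM in dinutuximab tumours 3 and 4. With sEVs the mean was 35.0 ± 14.0 CPM and with dinutuximab 65.7 ± 16.7 CPM (SD, n = 2 each), or 1.88-fold lower (log2 -0.91 ± 0.27, SE), the lowest value of the 10. Its exons share 349 bases with Lrp2bp on the opposite strand, which had at most 7 counts in a library, and 57 with Ufsp2, which had between 1186 and 1442. Whether the counting used strand is not given in the sources used here, so some of its reads are uncertain.

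Hilpda (ENSMUSG00000043421, chromosome 6, 29272488 to 29275446, plus strand) encodes a small lipid droplet protein that restrains the lipase ATGL. It had 59.3 and 40.7 CPM in sEV tumours 3 and 4, against 108 and 73.7 CPM in dinutuximab tumours 3 and 4. The mean was 50.01 ± 13.2 CPM with sEVs and 90.8 ± 24.1 CPM with dinutuximab (SD, n = 2 each), 1.82-fold lower (log2 -0.86 ± 0.23, SE). In this gene, too, sEV tumour 4 was lowest and dinutuximab tumour 3 highest, with no overlap between the groups.

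Ndrg1 (ENSMUSG00000005125, chromosome 15, 66929318 to 66969640, minus strand) was named for its repression by N-myc and is induced by hypoxia and differentiation. It had 270.2 and 235 CPM in sEV tumours 3 and 4, against 442 and 329.6 CPM in dinutuximab tumours 3 and 4. The log2 fold change was -0.61 ± 0.17 (SE). Here the 2 sEV tumours lay close together and the dinutuximab tumours far apart. The exons of Ndrg1 share 419 bases with Gm17035 and 137 with Gm2895 on the opposite strand, each with at most 4 counts in a library. The other 3 genes of the NDRG family had log2 fold changes of 0.21 ± 0.15 (Ndrg3), -0.24 ± 0.19 (Ndrg2) and 0.13 ± 0.25 (Ndrg4), and their groups overlapped. Ndrg4 was -0.22 without sEV replicate 3 and -0.11 without dinutuximab replicate 3.

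Bnip3 and Bnip3l (also called NIX) encode related receptors of the outer mitochondrial membrane that recruit the autophagy machinery. Bnip3 (ENSMUSG00000078566, chromosome 7, 138890836 to 138909519, minus strand) had 297 and 261 CPM in sEV tumours 3 and 4, against 347 and 281 CPM in dinutuximab tumours 3 and 4 (log2 -0.17 ± 0.15, SE). Bnip3l (ENSMUSG00000022051, chromosome 14, 66985239 to 67008877, minus strand) had 159 and 144 CPM with sEVs, against 157 and 125 CPM with dinutuximab (log2 0.11 ± 0.15, SE). It was the one member with a positive value, and neither gene had groups apart. The exons of Bnip3 share 504 bases with the antisense gene Gm45507, for which no counts are given. Per length, Bnip3 stood at 3.17 and 3.09 times Bnip3l in sEV tumours 3 and 4, against 3.76 and 3.85 times in dinutuximab tumours 3 and 4. The groups did not overlap in this ratio, which was read after the values were seen and was not tested, whereas they overlapped in each gene alone. Among the 4 other mitophagy receptors tested, Fundc1 had 0.30 ± 0.15, Fkbp8 0.08 ± 0.14 and Phb2 0.06 ± 0.13 (log2 fold change and SE). edgeR, DESeq2 and limma-voom called 0 of the 4, and 0 had an unadjusted p under 0.05 by edgeR. Fkbp8 was -0.05 and Phb2 -0.012 without sEV replicate 3, and Phb2 was -0.00085 without dinutuximab replicate 4.

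P4ha1 and P4ha2 encode alpha subunits of the collagen prolyl 4-hydroxylase, whose product stabilises the collagen triple helix. P4ha1 (ENSMUSG00000019916, chromosome 10, 59323296 to 59373304, plus strand) had 205 and 265 CPM in sEV tumours 3 and 4, against 312 and 295 CPM in dinutuximab tumours 3 and 4 (log2 -0.37 ± 0.15, SE). P4ha2 (ENSMUSG00000018906, chromosome 11, 54100095 to 54131665, plus strand) had 70.6 and 74.97 CPM with sEVs, against 126 and 88.5 CPM with dinutuximab (log2 -0.56 ± 0.18, SE). In P4ha1 the sEV tumours were the more spread pair, and in P4ha2 the dinutuximab tumours were. Both were lowest in sEV tumour 3, unlike Egln3, Ankrd37 and Hilpda. Of the 8 other collagen hydroxylase genes tested, 0 were called by edgeR, DESeq2 or limma-voom, 1 had an unadjusted p under 0.05 by edgeR, 5 had negative and 3 positive values, and their median was -0.04. P4ha3, the third alpha subunit, had a positive value (0.63 ± 0.25, SE; 16.2 and 10.4 CPM with sEVs, 9.12 and 8.07 with dinutuximab), as did P3h3 (0.30 ± 0.15), and Plod3 had -0.25 ± 0.13. P4ha3 depended on 1 library, at 0.91 without sEV replicate 4, where edgeR called it (adjusted p = 0.031), and 0.27 without sEV replicate 3.

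Car9 (ENSMUSG00000028463, chromosome 4, 43506966 to 43513729, plus strand) encodes carbonic anhydrase IX, an enzyme of the cell surface that turns carbon dioxide into bicarbonate and protons and is widely used as a hypoxia marker. It had 104 and 117 CPM in sEV tumours 3 and 4, against 173 and 125 CPM in dinutuximab tumours 3 and 4 (log2 -0.43 ± 0.17, SE). The groups did not overlap, but sEV tumour 4 and dinutuximab tumour 4 lay close together. Its exons share 214 bases with the antisense gene Gm12454, which had between 19 and 29 counts. Of 11 other carbonic anhydrases and pH regulators tested, 5 had negative and 6 positive values, 0 were called by edgeR, DESeq2 or limma-voom, and 1 had an unadjusted p under 0.05 by edgeR. Car12, another surface carbonic anhydrase induced by HIF, had 32.6 and 35.2 CPM with sEVs, against 50.1 and 45.2 CPM with dinutuximab (log2 -0.49 ± 0.14, SE). Car5b had 0.26 ± 0.15 and Car2, at no more than 1.03 CPM, 0.87 ± 0.45. DESeq2 gave Car2 no adjusted p, so it could not call that gene.

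Kdm3a (ENSMUSG00000053470, chromosome 6, 71588972 to 71632990, minus strand) encodes an oxygen-dependent demethylase of histone H3 lysine 9. It had 72.0 and 75.2 CPM in sEV tumours 3 and 4, against 85.2 and 87.4 CPM in dinutuximab tumours 3 and 4, a small difference (log2 -0.23 ± 0.12, SE) between groups whose tumours lay close together. Among 13 other JmjC demethylases tested, 10 had negative and 3 positive values, with a median of -0.20. edgeR, DESeq2 and limma-voom called 0 of the 13, and 2 had an unadjusted p under 0.05 by edgeR. Kdm5b had -0.44 ± 0.13, Jmjd1c -0.29 ± 0.15 and Kdm6b -0.65 ± 0.22 (log2 fold change and SE). Kdm6b was called by edgeR without sEV replicate 4 (-0.90, adjusted p = 0.0044), with a replicate block (adjusted p = 0.042) and with no low-count filter (adjusted p = 0.0058), and had -0.33 without dinutuximab replicate 4 and -0.92 without dinutuximab replicate 3.

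**Figure D2:**
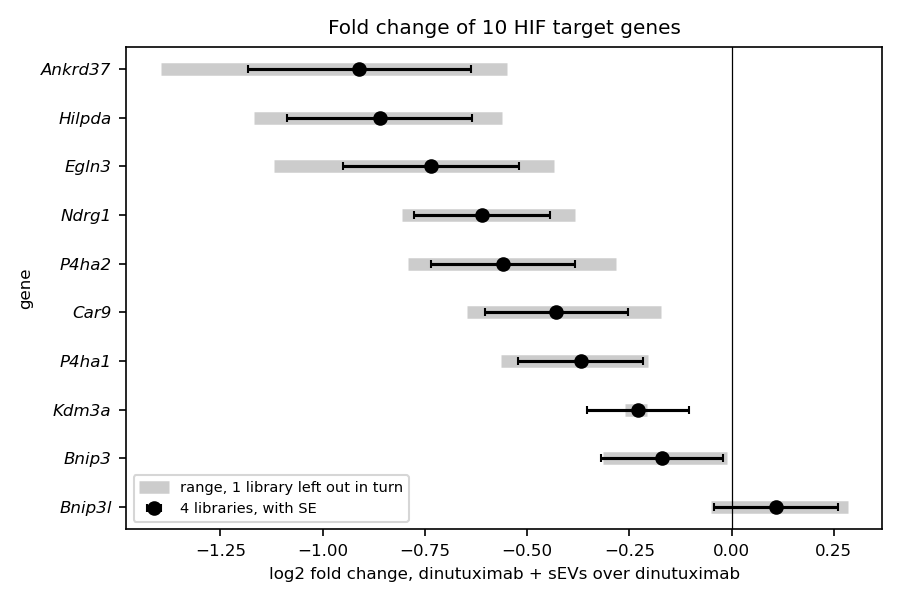
Log2 fold change of dinutuximab plus sEVs over dinutuximab (horizontal axis) for the 10 genes, with the SE from 4 libraries (points and bars) and the range when each library was left out in turn (grey). Values run between -0.91 for Ankrd37 and 0.11 for Bnip3l, and the grey range of Bnip3l crosses 0.

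The 2 tumours of a group also differed in these genes, a measure apart from the contrast between groups. All but Kdm3a were lower in dinutuximab tumour 4 than in dinutuximab tumour 3 (9 of 10), and 8 of the 10 were highest in dinutuximab tumour 3. Of 10280 tested genes with a mean of at least 5 CPM, the middle 90% had a log2 difference of tumour 4 minus tumour 3 between -0.40 and 0.47 within the dinutuximab group. Hilpda (-0.55), Ankrd37 (-0.52), P4ha2 (-0.51), Car9 (-0.47) and Ndrg1 (-0.42) lay below that range. Between 1.66% and 4.19% of those genes had a lower difference than these 5. Bnip3l (-0.33), Bnip3 (-0.30), Egln3 (-0.26), P4ha1 (-0.08) and Kdm3a (0.04) lay within it.

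Within the sEV group the members divided. Egln3 (-0.67), Ankrd37 (-0.82) and Hilpda (-0.54) were lower in tumour 4 than in tumour 3, outside the middle 90% of genes (-0.44 to 0.42). Ndrg1 (-0.20), Bnip3 (-0.18) and Bnip3l (-0.15) were slightly lower, and Kdm3a (0.06), P4ha2 (0.09), Car9 (0.17) and P4ha1 (0.37) were higher, all 7 within that range. Thus 6 of 10 were lower in sEV tumour 4 and 4 of 10 were lower in sEV tumour 3. The difference between the group means of log2 CPM was negative and exceeded the distance between the tumours of either group in 7 of the 10, and not in Bnip3, Bnip3l and Car9. Of the 10280 genes with a mean of at least 5 CPM, 10.1% were lower in this way. The grouping into these sets was made after the values were seen and was not tested.

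**Figure D3:**
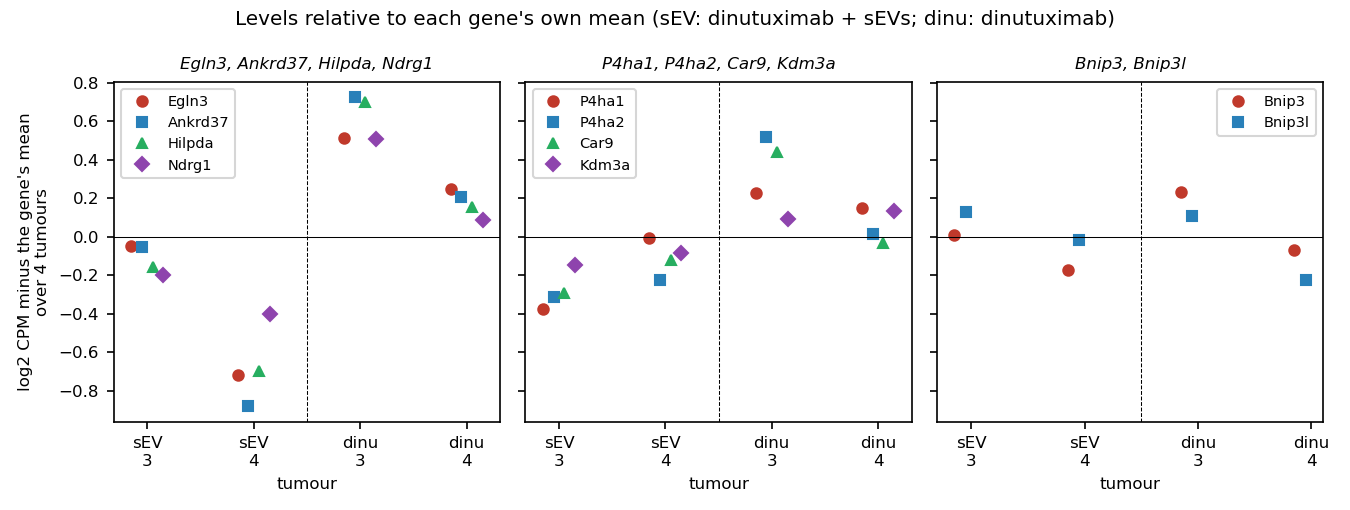
Log2 CPM of each gene minus its own mean over the 4 tumours (vertical axis) in sEV tumours 3 and 4 and dinutuximab tumours 3 and 4 (horizontal axis), in 3 panels by pattern. Egln3, Ankrd37 and Hilpda reach -0.72, -0.88 and -0.70 in sEV tumour 4, while P4ha1, P4ha2, Car9 and Kdm3a are lowest in sEV tumour 3.

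The calls differed when 1 library was left out. Without sEV replicate 3, and without sEV replicate 4, edgeR's prior degrees of freedom also came out infinite. The part of this change and the part of the library left out were not tested. Without sEV replicate 3, edgeR called 3 of the 10, Egln3 (-1.12), Ankrd37 (-1.40) and Hilpda (-1.17), beside 0.93% of all genes. Without sEV replicate 4 the same 3 genes had -0.44, -0.55 and -0.61, and edgeR called 0 of the 10 and 2.23% of all genes, and without dinutuximab replicate 3 or dinutuximab replicate 4 edgeR called 0 of the 10 and 0% of all genes. Values were negative in 9 of the 10 without sEV replicate 3, sEV replicate 4 or dinutuximab replicate 3, and in 10 of 10 without dinutuximab replicate 4, where Bnip3l was -0.05. The median log2 fold change was -0.31 without dinutuximab replicate 3 and -0.72 without dinutuximab replicate 4.

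Levels can be compared between genes per length of exon, as RPKM (CPM per kilobase of annotated exon). Bnip3 was the highest member, with a mean of 131 RPKM over the 4 tumours, and its lowest tumour was above the highest tumour of P4ha1. P4ha1 (65.5), Hilpda (63.8), Egln3 (57.7), Car9 (56.3), Ndrg1 (48.4), Bnip3l (37.9) and Ankrd37 (32.7 RPKM) followed. Each of these 7 overlapped its neighbour in the order, so that the ranges of neighbours do not fix their order. Even so, Hilpda stood above Egln3 and Car9 above Ndrg1 in 4 of 4 tumours. Farther apart in the order, P4ha1 (49.9 to 75.9 RPKM) and Car9 (45.1 to 75.2) lay above Bnip3l (32.3 to 41.3) without overlap. P4ha2 had 14.4 RPKM, its range overlapping that of Ankrd37, and Kdm3a was lowest in every tumour at 9.72 RPKM. P4ha1 stood at 4.41 and 5.36 times P4ha2 in sEV tumours 3 and 4, against 3.76 and 5.06 times in dinutuximab tumours 3 and 4, with overlapping groups.

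**Figure D4:**
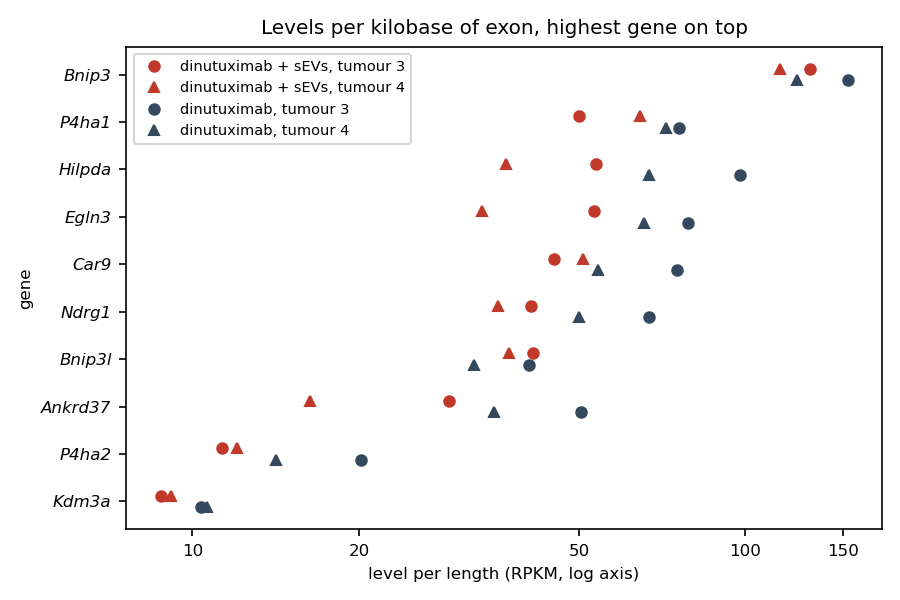
Level per kilobase of exon in RPKM (horizontal log axis) for the 10 genes, highest mean on top, with dinutuximab plus sEVs in red and dinutuximab in dark (circle tumour 3, triangle tumour 4). Bnip3 lies above 115 RPKM in each tumour and Kdm3a at or below 10.6 RPKM, and the genes between overlap their neighbours.

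Other known HIF targets outside glycolysis and angiogenesis were read from a list of 30 genes written from general knowledge, with earlier results of these data known. Of its 27 tested genes, edgeR and limma-voom called 0, and DESeq2 called 2 as lower, Bhlhe40 (adjusted p = 0.0070) and Mxi1 (adjusted p = 0.012). DESeq2 gave Lox no adjusted p, so it could not call that gene. By edgeR, 10 were lower and 1 higher at an unadjusted p under 0.05. With a replicate block edgeR called Bhlhe40 (adjusted p = 0.024), Mxi1 (adjusted p = 0.042) and Lox (adjusted p = 0.044) as lower. That fit called 67 of 13823 genes. With no low-count filter all 30 listed genes were tested, and edgeR called 5 as lower and 1 as higher, beside 262 of 22003 genes. Those called were Mxi1, Bhlhe40, Lox, Ero1l, Cited2 and Loxl2. Mxi1, Bhlhe40 and Lox were lower, and the 1 higher gene was among the rest. In the main fit the highest log2 fold change of the 27 was 0.62. Of the 27, 20 had negative and 7 positive values, and the median log2 fold change was -0.20, beside -0.49 for the 10 members and 0.0015 over all tested genes. The sEV tumours lay below both dinutuximab tumours in 14 of the 27 and above both in 0, where 16.5% and 18.1% of all tested genes did so. Those of lowest p were Lox, which encodes lysyl oxidase, a collagen cross-linker, Bhlhe40, a transcriptional repressor, and Mxi1, an antagonist of MYC. Bhlhe40 had 90.03 and 72.7 CPM with sEVs, against 134 and 131 CPM with dinutuximab (log2 -0.71 ± 0.15, SE). Mxi1 had 100.2 and 112 CPM with sEVs, against 176 and 157 CPM with dinutuximab (log2 -0.64 ± 0.14, SE). Lox was scarce, at 0.267 and 0.208 CPM with sEVs, against 1.68 and 1.27 CPM with dinutuximab (log2 -2.61 ± 0.47, SE).

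Among 8 tested oxygen sensors and HIF subunits other than Egln3, 7 had negative and 1 a positive value, 0 were called by edgeR, DESeq2 or limma-voom, and 3 had an unadjusted p under 0.05 by edgeR. Hif1a, the alpha subunit itself, had 179.9 and 221 CPM with sEVs, against 178 and 196 CPM with dinutuximab (log2 0.10 ± 0.15, SE), and its sign rested on sEV tumour 4, with -0.056 without sEV replicate 4. Epas1, which encodes HIF-2 alpha, had 3.78 and 5.06 CPM with sEVs, against 6.82 and 9.05 CPM with dinutuximab (-0.84 ± 0.27), Egln1 had -0.34 ± 0.13, and Arnt2, a beta subunit at no more than 1.56 CPM, -0.95 ± 0.39. Of 8 lipid droplet genes other than Hilpda, 4 had negative and 4 positive values with a median near 0 (-0.0038). Plin2, the main coat protein of lipid droplets and itself often induced by hypoxia, had -0.18 ± 0.14, Dgat1 0.28 ± 0.18 and Dgat2 0.38 ± 0.33.

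**Figure D5:**
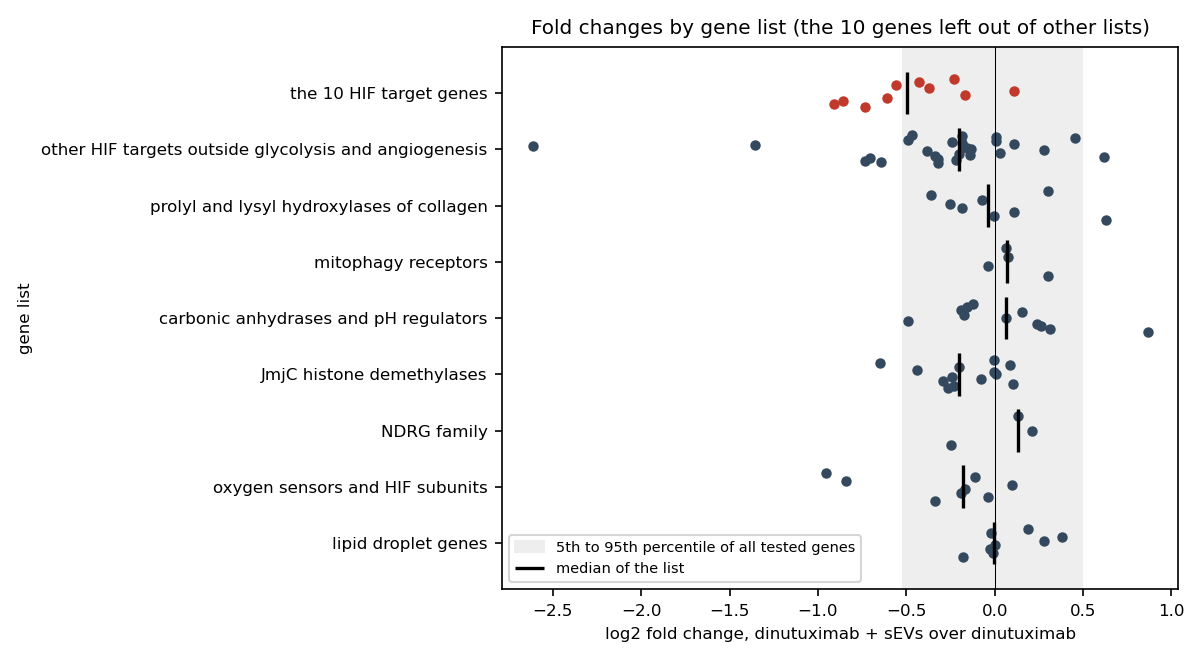
Log2 fold change of dinutuximab plus sEVs over dinutuximab (horizontal axis) for each tested gene of the 10 members (top, red) and of 8 related lists without them (dark), with the median of each list (black line) and the 5th to 95th percentile of all tested genes (grey, -0.52 to 0.49). Of the 10 members, 5 lie below the grey band, and the medians of the other lists lie between -0.20 and 0.13.

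The genes most like the members were those with the smallest root mean square difference between their log2 CPM, centred on their mean over the 4 libraries, and the members' median profile (-0.15 and -0.20 in sEV tumours 3 and 4, 0.48 and 0.11 in dinutuximab tumours 3 and 4). Among 10270 other genes with a mean of at least 5 CPM the nearest 4 were Gm14303 (0.067), Ddit3 (0.074), Mllt3 (0.075) and Rpl31-ps8 (0.082). Gm14303 and Rpl31-ps8 are pseudogenes, may share reads with near-identical copies and are uncertain. For comparison, P4ha2 (0.096), Ndrg1 (0.10) and Car9 (0.11) were the members nearest to the median profile and Ankrd37 (0.37) the farthest. With 4 libraries, such likeness is a description.

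Some other features of the libraries moved with the groups, and others did not. Counts on genes that take up ribosomal RNA reads made up 5.08% and 4.36% in sEV tumours 3 and 4, against 6.06% and 6.37% in dinutuximab tumours 3 and 4. Of 14 immediate early and heat shock genes 13 had negative values, with a summed level of 621 and 698 CPM with sEVs, against 861 and 802 CPM with dinutuximab. All 7 endothelial markers had negative values (summed 103 and 96.3 CPM with sEVs, 124 and 135 with dinutuximab), and 6 of 7 macrophage markers positive ones (1701 and 1756 CPM with sEVs, 1466 and 1514 with dinutuximab). The 6 red blood cell genes were all positive (70.8 and 43.4 CPM with sEVs, 35.1 and 21.3 with dinutuximab), and 4 of 7 fibroblast markers were negative, with summed levels of 893 and 743 CPM with sEVs, against 636 and 628 with dinutuximab. All 5 tested skeletal muscle markers were negative (8.48 and 4.96 CPM summed with sEVs, 12.2 and 13.1 with dinutuximab). The 7 tumour markers summed to 345 and 334 CPM with sEVs, against 306 and 327 with dinutuximab. Keratinocyte markers summed to at most 1.72 CPM, in sEV tumour 3. Neutrophil markers summed to 1.07 and 0.866 CPM with sEVs, against 0.312 and 0.409 with dinutuximab. The groups overlapped in T and NK cell markers (1.49 and 7.52 CPM summed with sEVs, 1.87 and 3.97 with dinutuximab). They also overlapped in adipocyte markers (30.1 and 27.6 CPM summed with sEVs, 29.1 and 33.2 with dinutuximab). Of the adipocyte markers, Plin1 and Lep were at 0 while Fabp4 had between 26.5 and 32.8 CPM. The part of these features in the members' values was not tested.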

How the data were processed

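Messenger RNA of 4 flash-frozen tumours was sequenced from stranded libraries, per the labels' protocols. The deposited files hold unnormalised counts for Ensembl genes, made by the authors, and all 173728 values were equal in the series table and the tables per sample. STAR, SAMtools, HTSeq and the mm10 build are named in the submitters' processing notes; versions, annotation and strand setting are not given in the sources used here. GENCODE M21 (GRCm38, the assembly that mm10 denotes) named 42548 of 43432 IDs; promoters came from RefSeq on GRCm38.p6. The 884 unnamed IDs took between 0.0945% and 0.100% of a library's counts.

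The counts were fitted in R 4.3.3 with edgeR 4.0.16: filterByExpr at its defaults kept 13823 genes, TMM factors ran between 0.976 and 1.02, and a quasi-likelihood F test with the group as its only term was adjusted by the Benjamini-Hochberg method at 0.05. The SE is the log2 fold change over the root of F. Log2 levels used CPM plus 0.5. DESeq2 1.42.0 and limma 3.58.1 (voom) were alternatives, 14 in all with other scalings, filters, a block and each library left out. The tests were tested on simulated data. With 2 tumours against 2, a permutation test over samples cannot pass the threshold and none was run. The members and lists were chosen with earlier results of these data known. All members were named, with up to 3 other genes of lowest p per related list and the 5 genes most like the members in profile, of which 1 is not reported here; other genes were named after their values were seen.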

Additional observations from a re-analysis of the deposited data

How the results depend on the processing

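Over 14 alternatives, 9 of the 10 members had a negative log2 fold change in each, and Bnip3l ran between -0.050 without dinutuximab replicate 4 and 0.28 without dinutuximab replicate 3. Of the other genes named from related lists, 4 changed sign with a library left out: Hif1a (between -0.056 and 0.23; negative without sEV replicate 4), Fkbp8 (between -0.053 and 0.19; negative without sEV replicate 3), Phb2 (between -0.012 and 0.13; negative without sEV replicate 3, and -0.00085 without dinutuximab replicate 4) and Ndrg4 (between -0.22 and 0.41; negative without sEV replicate 3, and -0.11 without dinutuximab replicate 3). The counts of called genes depended on the setting. Against 0 of 13823 genes and 0 members, DESeq2 called 55 of 13823 genes and 1 member. A fit with no low-count filter called 262 of 22003 genes and 5 members, and the cause was not tested. The number shared by tumours is not shown to pair them: the deviations of same-numbered tumours from their group means had a correlation of 0.094 over genes, with 2 pairs. With it as a replicate block, edgeR called 67 of 13823 genes and 3 members, and also Lox, Bhlhe40, Mxi1 and Kdm6b. Leaving out 1 library in turn gave between 0 and 316 genes, between 0 and 3 members and a median log2 fold change of the members between -0.72 and -0.31, and the cause was not tested. In the fits without a low-count filter, without sEV replicate 3 and without sEV replicate 4 edgeR's prior degrees of freedom came out infinite. Upper-quartile, RLE or no factors, a filter of 1 CPM in 2 libraries, robust dispersions, limma-voom and leaving out ribosomal RNA and mitochondrial genes left the counts at 0 and the median between -0.50 and -0.45. A library left alone in its group was assumed to vary like those of the other group. How depth limits these values was not tested; Lox and Car2 rest on few counts.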
